A study of Mus musculus with 8 samples.

Results

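The 10 genes described here carry out the release of cholesterol from its stored esters, its export from the cell and the control of both by the liver X receptors (LXR). They were chosen by name: Lipa, Npc1 and Npc2 for the lysosome, Abca1, Abcg1 and Apoe for export, Nr1h3 and Nr1h2 as the receptors, Mylip as a receptor target, and Soat1 for the reverse step of esterification. All 10 were found once each among the 34866 genes of the table, and all 10 passed the low-count filter that left 12480 genes for testing. The measurements come from epididymal white adipose tissue of male mice. The 4 control libraries have the genotype Aromatase flox/flox, in which loxP sites flank both copies of the aromatase gene Cyp19a1, and the 4 knockout libraries have the genotype aP2-Cre;Aromatase flox/flox. The floxed alleles are therefore shared by both groups, and the aP2-Cre transgene is carried by the knockout group alone. In that transgene Cre recombinase is under the promoter of Fabp4 (aP2), a gene for a fatty-acid binding protein. The promoter is active in adipocytes and is also known to be active in some macrophages and endothelial cells. Mice with aP2-Cre and no floxed allele were not analysed here, and effects of the transgene and of the deletion cannot be told apart. The labels give no age, treatment or batch. The stated aim of the study was to find genes downstream of aromatase, the enzyme that makes oestrogens from androgens, that bear on phosphorus handling.

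Cells store surplus cholesterol as fatty-acid esters. Esters taken up with lipoproteins or dead cells are cut in the lysosome by acid lipase, and the NPC1 and NPC2 proteins hand the free sterol out of that compartment. Free cholesterol is esterified again by SOAT1 or passed by the transporters ABCA1 and ABCG1 to lipoprotein acceptors such as apolipoprotein E. LXR, which pairs with the retinoid X receptor, senses oxidised sterols and raises transcription of ABCA1, ABCG1, apolipoprotein E and MYLIP, a ubiquitin ligase that sends the LDL receptor for degradation. In adipose tissue, adipocytes hold much of the free cholesterol, and macrophages run the lysosomal route when they take up lipid.

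The promoters of Lipa and Abca1 are shown because Lipa was the gene of the 10 that passed the test and Abca1 is a textbook LXR target that did not. Both are RefSeq sequences on GRCm38.p6, minus strand, from 250 bases before to 50 bases after the start of transcription, for Lipa at chr19:34527425-34527724 and for Abca1 at chr4:53159846-53160145. Capitals mark matches to the motifs searched.
Lipa: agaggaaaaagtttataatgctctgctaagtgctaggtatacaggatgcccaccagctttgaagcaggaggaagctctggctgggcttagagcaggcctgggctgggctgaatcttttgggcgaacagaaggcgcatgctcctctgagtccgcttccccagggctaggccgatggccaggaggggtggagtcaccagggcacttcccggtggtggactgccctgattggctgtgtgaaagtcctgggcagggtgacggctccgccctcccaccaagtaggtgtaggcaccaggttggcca
Abca1: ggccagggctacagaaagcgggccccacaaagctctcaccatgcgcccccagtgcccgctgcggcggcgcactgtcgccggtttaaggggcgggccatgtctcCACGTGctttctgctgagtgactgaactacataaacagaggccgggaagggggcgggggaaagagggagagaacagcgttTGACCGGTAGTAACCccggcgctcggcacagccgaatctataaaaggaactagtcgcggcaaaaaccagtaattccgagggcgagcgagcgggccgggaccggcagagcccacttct
The motifs were searched on both strands. They were the E-box core CACGTG, the longer TCACGTG, which is the core of the element bound by the lysosomal regulator TFEB and overlaps the E-box, the sterol regulatory element TCACNCCAC, and direct repeats of GGTCA. LXR with its partner binds repeated hexamers with 4 bases between them, which leaves 5 bases between the GGTCA cores. The repeat with 4 bases between the cores was searched first and does not have this spacing, so the one with 5 bases was added later. The Abca1 promoter held 1 E-box core, at bases -147 to -142 from the start, and the Lipa promoter held none of the letters searched. The second block of capitals in Abca1, at bases -67 to -53, has the LXR spacing with a changed first core and reads GGTTA, any 5 bases and GGTCA on the other strand. This form was also added later, after the sequence had been seen, since an LXR element is known at that place in Abca1. Of 32851 promoters of 300 bases, 7.15% held CACGTG, 3.77% TCACGTG, 1.24% TCACNCCAC, 0.0457% the GGTCA repeat with 4 bases between cores, 0.0761% that with 5 bases and 0.0487% the form found in Abca1. RefSeq promoters were matched for 8 of the 10 genes, not for Npc1 or Abcg1, and outside Abca1 none of these 6 sets of letters was found in the windows of the other 7, which says nothing of the factors. A match is a description of letters and not a measured binding site.

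The libraries held 1538427 to 3053565 estimated counts, and values are given as CPM, counts scaled to a common total, on library sizes adjusted by the trimmed mean of M values (TMM). Mitochondrially encoded genes took a smaller part of the counts in the knockout libraries (9.32% ± 0.589 against 11.3% ± 0.814, SD, n = 4, two-sided exact permutation p = 0.0286, the smallest the design allows). More genes had a count above 0 in the knockout libraries (17968 to 18247 against 17176 to 17937, exact permutation p = 0.0286), while the total counts overlapped. The part of either difference in the results below was not tested. Cyp19a1 had 0 to 5.02 estimated counts per library, too few to check the deletion (control 1.00 ± 0.837 CPM, knockout 0.761 ± 0.663 CPM, SD, n = 4, exact permutation p = 0.686). The adipocyte markers were abundant in all 8 libraries, at a sum of 50808 to 78380 CPM over 10 genes, and 5 of 6 epididymal markers were at 0 throughout. The labels do not say whether replicates come from separate mice, so the p-values measure the spread between these libraries.

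Lipa, which encodes the acid lipase that frees cholesterol and fatty acids in the lysosome, rose, and was the 1 gene of the 10 that passed the threshold in edgeR. Lipa stood at 74.8, 67.8, 90.1 and 80.1 CPM in control replicates 1 to 4. In knockout replicates 1 to 4 Lipa stood at 133, 163, 141 and 142 CPM. Every knockout library lay above every control library, and the spread within each genotype was small beside the gap between them. The means were 78.2 ± 9.43 and 145 ± 12.9 CPM (SD, n = 4), a 1.85-fold difference (log2 fold change 0.89, standard error 0.122, 95% interval 0.63 to 1.15, edgeR adjusted p = 0.00776). Beside this 1 gene of 10, the share of all 12480 genes past an adjusted p of 0.05 was 0.168%, and 0.12% for higher genes. Lipa had rank 4 by p among all genes, and it rested on 125 to 432 estimated counts per library. The fold change lay between 0.82 and 0.97 on the log2 scale in the 8 fits that each left out 1 library. Lipa also passed with DESeq2 (adjusted p = 6.81e-07) and limma-voom (adjusted p = 0.00426), by which 0.441% and 0.192% of all genes passed. Without control replicate 2, the lowest of the 8 for Lipa, the adjusted p was 0.0551. The gene lies at chromosome 19, 34492318 to 34527474, on the minus strand of GRCm38, and it shares at most 13 of its 6831 transcript words of 31 bases with another gene of the table.

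Npc1 and Npc2, the partners that carry sterol from the lysosomal lumen to its membrane and out, did not follow Lipa past the threshold. Npc1 was at 36.7, 39.3, 35.4 and 41.0 CPM in the control libraries. In the knockout libraries Npc1 was at 65.5, 39.9, 47.7 and 46.2 CPM. One knockout library, replicate 2, fell inside the control range, and replicate 1 was the highest by a wide margin. The log2 fold change was 0.39 (95% interval 0.04 to 0.73, unadjusted p = 0.0316, edgeR adjusted p = 0.713). Without knockout replicate 1 it was 0.23. The annotation places Npc1 over Rmc1 on the opposite strand. The use of strand in counting is not given in the sources used here, and whether reads of the pair were mixed was not tested. Npc2, the soluble partner, ranged from 515 to 742 CPM in control and from 542 to 826 CPM in knockout libraries. The Npc2 ranges overlapped almost fully and the log2 fold change was 0.09 (95% interval -0.23 to 0.41, edgeR adjusted p = 0.959). Within each library, Lipa relative to Npc2 was higher in the knockout group, at -2.54 to -1.81 log2 units against -3.19 to -2.67. This ratio was picked after the values had been seen and was not tested.

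No export gene passed the threshold in edgeR, and their differences were unequal in size. Abcg1, the transporter that loads cholesterol onto high-density lipoprotein particles, was at 37.4, 41.4, 45.7 and 24.4 CPM in the control libraries, by replicate number. It was at 92.5, 60.5, 60.1 and 77.4 CPM in knockout replicates 1 to 4. The groups did not overlap, though both spread more than for Lipa, and control replicate 4, the smallest library, was the lowest with 38 estimated counts. The difference was 1.93-fold, with means of 37.2 ± 9.23 and 72.6 ± 15.5 CPM (n = 4, SD; log2 fold change 0.95, standard error 0.192, 95% interval 0.53 to 1.36). The unadjusted p was 0.000223, and Abcg1 did not pass after adjustment (edgeR adjusted p = 0.0962). The same gene passed with DESeq2 (adjusted p = 0.00764) and in edgeR without the low-count filter (adjusted p = 0.000277), settings in which 0.441% and 0.253% of all genes passed. It missed in the other 13 alternatives, where the adjusted p ran from 0.0746 to 0.346. Abcg1 lies at chromosome 17, 31057675 to 31117988, on the plus strand, and shares at most 36 of its 7316 words of 31 bases with any other gene of the table.

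Abca1, which passes cholesterol to lipid-poor apolipoproteins, was at 200.02 to 256 CPM in control and 227 to 294 CPM in knockout libraries. These ranges overlapped, and 3 of 4 knockout libraries lay within the control range. The log2 fold change was 0.13 with a 95% interval of -0.12 to 0.39, which ends below the 0.53 at which that of Abcg1 begins (edgeR adjusted p = 0.927). Abcg1 relative to Abca1 in the same library was -3.00 to -2.28 log2 units in the control and -2.0 to -1.66 in the knockout group, so the groups did not overlap in this ratio either. The pair was chosen with its values known and the ratio carries no test. Apoe, the acceptor protein and the most abundant of the 10 in CPM, averaged 3271 ± 613 CPM in control and 3090.1 ± 265 CPM in knockout libraries (n = 4, SD). Its log2 fold change was -0.08 (95% interval -0.38 to 0.21, edgeR adjusted p = 0.959), and the sign turned to 0.04 without control replicate 1, the library with the highest Apoe level. Apoe had 4140 to 11700 estimated counts per library, the most of the 10.

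**Figure D1:**
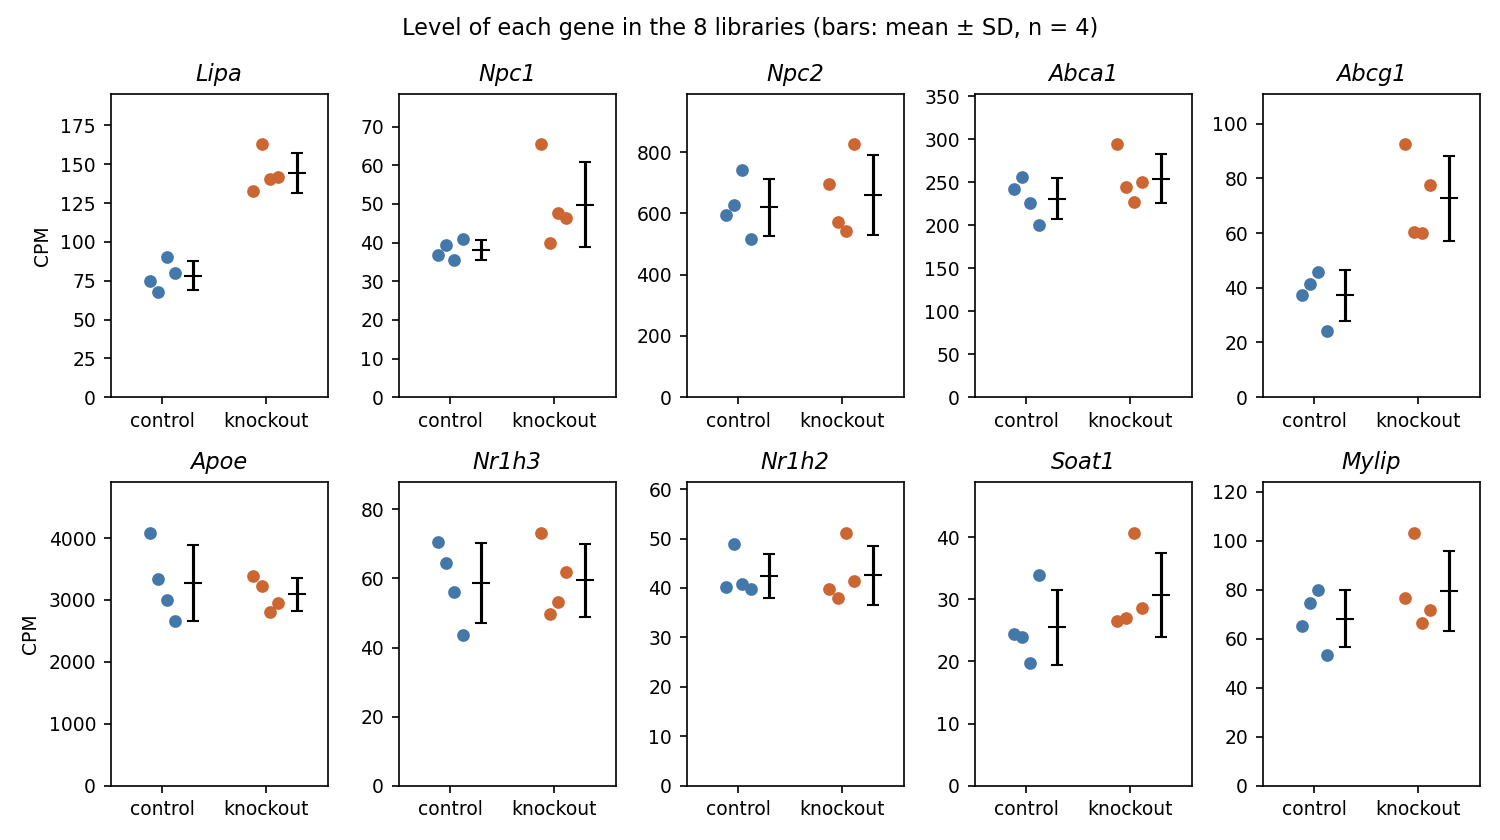
Each panel plots CPM (vertical axis, from 0, scaled per gene) of 1 gene in the 4 control (blue) and 4 knockout (orange) libraries, with the mean and SD of each group as black bars. Lipa and Abcg1 are the genes whose groups do not overlap.

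Neither receptor gene passed, and their fold changes were the closest to 0 of the 10. Nr1h3 encodes LXR alpha, the form concentrated in fat, liver and macrophages. It was at 43.6 to 70.6 CPM in control and 49.6 to 73.3 CPM in knockout libraries (log2 fold change 0.01, 95% interval -0.35 to 0.36, edgeR adjusted p = 0.999). The other receptor gene, Nr1h2, which encodes the widely expressed LXR beta, was at 39.7 to 49.0 and 37.9 to 51.2 CPM (log2 fold change 0.00, 95% interval -0.31 to 0.32, edgeR adjusted p = 0.999). For both the intervals reach neither the change of Lipa nor that of Abcg1, and the signs of their near-zero differences turned with the scaling and with single libraries. The ratio of Nr1h3 to Nr1h2 within a library averaged 0.44 ± 0.28 log2 units in the control and 0.47 ± 0.34 in the knockout group (SD, n = 4).

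Mylip, the LXR target that lowers the LDL receptor protein, was at 53.2 to 79.8 CPM in control and 66.3 to 103 CPM in knockout libraries. Knockout replicate 2 was the highest, and without it the log2 fold change went from 0.21 to 0.06 (95% interval with all libraries -0.13 to 0.56, edgeR adjusted p = 0.918). Soat1, the enzyme that esterifies cholesterol in the endoplasmic reticulum, was at 19.7 to 34.0 and 26.6 to 40.7 CPM in the control and knockout libraries (log2 fold change 0.29, 95% interval -0.15 to 0.72, edgeR adjusted p = 0.910). One knockout library, replicate 3, stood well above the other 3, which lay between 26.6 and 28.5 CPM, and without it the log2 fold change was 0.12. Lipa relative to Soat1 was 1.22 to 2.15 log2 units in the control and 1.77 to 2.56 in the knockout libraries, with overlap between the groups. Over the 10 genes, 9 had a fold change above 0 and the median was 0.17 log2 units, beside 49.7% above 0 and a median of 0.00 over all genes tested. Libraries did not overlap in 2 of the 10, both higher, beside 4.21% of all genes (2.48% higher, 1.74% lower). An unadjusted p under 0.05 was reached by 3, all higher, beside 6.39% of all genes (3.52% higher, 2.87% lower). The genes were proposed with results of these data in view, so these counts are a description.

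**Figure D2:**
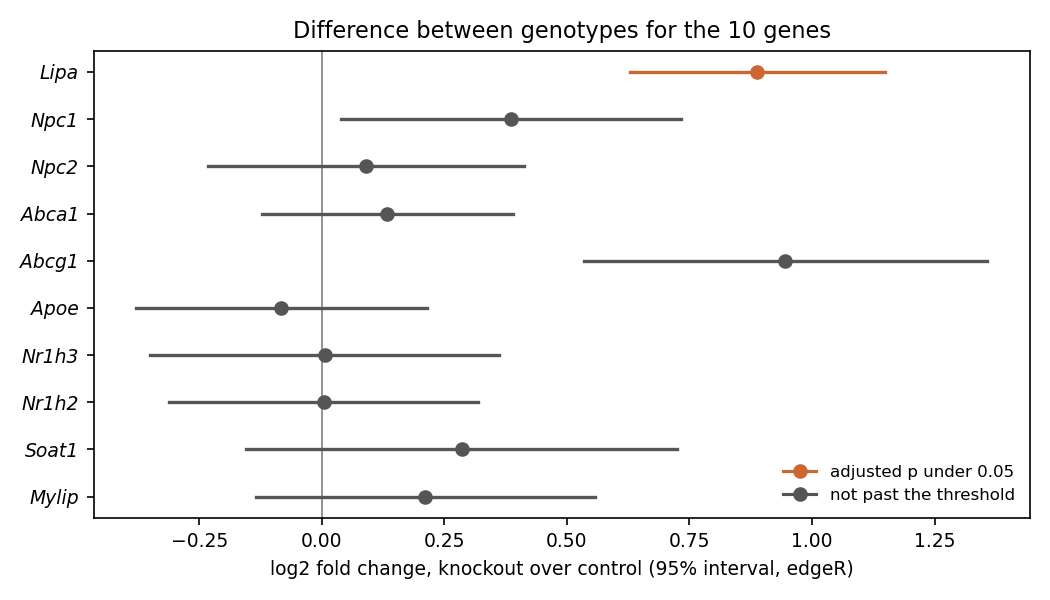
The horizontal axis gives the log2 fold change of knockout over control in edgeR for each of the 10 genes, with its 95% interval as a line. Lipa (orange) passed an adjusted p of 0.05, the Abcg1 interval of 0.53 to 1.36 lies beside it, and those of Apoe, Nr1h3 and Nr1h2 span 0 closely.

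Macrophages are known to carry much of this pathway in fat, and several of their markers were higher in the knockout libraries beside Lipa. Of 14 markers, 13 were tested. Of these, 12 had a fold change above 0, 3 passed as higher (Lyz2, Cd68 and Cybb), and the median was 0.52 log2 units. Over all genes tested, 49.7% were above 0, 0.12% passed as higher and the median was -0.0015. Libraries did not overlap for 8 of the 13, all higher, beside 2.48% of all genes. The marker sum was 888 to 1010.1 CPM in control and 1415 to 1692 CPM in knockout libraries. Lyz2 alone held 355 to 403 CPM of the control sums and 599 to 798 CPM of the knockout sums. None of the markers was at 0 in all libraries. Their mean log2 CPM was 5.62 ± 0.19 and 6.15 ± 0.08 (SD, n = 4, exact permutation p = 0.0286, the lowest that 4 against 4 gives; adjusted p = 0.143 over 5 marker lists). The part of these cells in the Lipa and Abcg1 values was not tested, and in bulk tissue more cells of a type and more RNA per cell cannot be told apart. The resident macrophage marker Cd163 had a log2 fold change of -0.19 (edgeR adjusted p = 0.957). The adipocyte markers had a median of -0.10, with 2 of 10 above 0 and none past the threshold by the edgeR test, and their sums overlapped, at 60214 to 78380 CPM in control and 50808 to 75078 CPM in knockout libraries. At an unadjusted p under 0.05 there was 1 of these, the resistin gene Retn, which was lower (log2 fold change -0.65, edgeR adjusted p = 0.0731). Endothelial (464 to 951 and 694 to 912 CPM), fibroblast and progenitor (3160 to 3803 and 3373 to 4206 CPM) and mesothelial (58.7 to 107 and 41.1 to 123 CPM) marker sums also overlapped. The 8 lymphocyte markers were below the filter, with sums of 7.76 to 28.6 CPM.

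The 10 genes were next set against the macrophage markers of the same library. Lipa minus the marker mean was 0.43, 0.52, 0.81 and 0.97 log2 units in the control libraries, in order of replicate number. The knockout libraries gave 0.95, 1.19, 1.07 and 0.89. The groups overlapped in this measure through control replicate 4, and the mean difference was 0.34 log2 units, beside the fold change of 0.89 for Lipa itself. Abcg1 gave -0.72 to -0.16 in the control and -0.22 to 0.44 in the knockout libraries, a mean difference of 0.42. Every other gene of the 10 was lower relative to the markers in the knockout group, from -0.18 for Npc1 to -0.61 for Apoe. Apoe, at 5.85 to 6.19 against 5.26 to 5.62 log2 units, and Abca1, at 2.12 to 2.42 against 1.70 to 2.10, did so without overlap. The marker mean was itself 0.54 log2 units higher in the knockout group, so a gene with an unchanged level comes out lower in this measure. The log2 fold changes of Apoe and Abca1 themselves were -0.08 and 0.13. The overlap of Abcg1 and the separation of Abca1 depended on the marker list. Without Lyz2 and Cd68 among the markers, Abcg1 separated (-0.48 to 0.07 in control, 0.09 to 0.75 in knockout libraries) and Abca1 overlapped (2.35 to 2.63 against 2.0 to 2.41), while Apoe still separated and Lipa still overlapped. These values describe the 2 quantities side by side and were given no test.

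**Figure D3:**
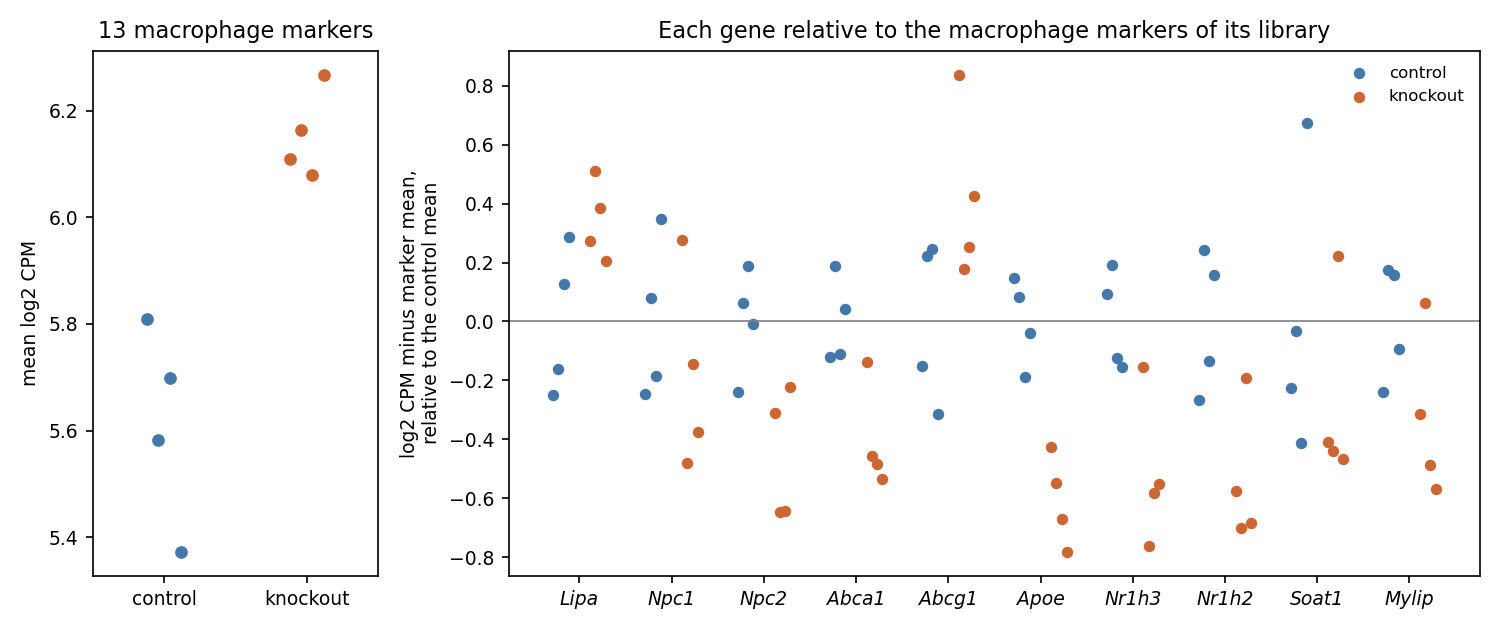
Left, the mean log2 CPM of 13 macrophage markers in each library; right, log2 CPM of each gene minus that mean, shown relative to the control average of the gene (0 line). Blue points are control and orange points knockout libraries. Lipa and Abcg1 sit above 0 in all 4 knockout libraries, and Npc2, Abca1, Apoe, Nr1h3 and Nr1h2 below it. The marker mean that is subtracted is itself higher in the knockout group.

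The wider pathway was read from 49 other genes in 4 lists, of which 40 were tested. None of the 40 passed in edgeR, DESeq2 or limma-voom, beside 0.168%, 0.441% and 0.192% of all genes. At shares this small, 0 of 40 is no result about these genes. Libraries did not overlap in 1 higher and 2 lower genes of the 40, beside 2.48% and 1.74% of all genes. At an unadjusted p under 0.05, 1 was higher and 1 lower, a share below the 6.39% of all genes tested, so the values of this pair are a description. The median log2 fold change of the 40 was 0.01, with 21 above 0. Nceh1 was the higher one. It encodes the neutral cholesterol ester hydrolase of macrophages, which cuts esters outside the lysosome. Nceh1 was at 18.5, 18, 17 and 18.6 CPM in the control libraries and at 28.8, 27.0, 24.0 and 25.6 CPM in the knockout libraries. The groups did not overlap and the difference was 1.46-fold (log2 fold change 0.55, 95% interval 0.18 to 0.91, unadjusted p = 0.00647, edgeR adjusted p = 0.482). Of the other lysosomal and hydrolysis genes, Lamp2, a lysosomal membrane protein gene, had 308 to 364 CPM in control and 283 to 299 CPM in knockout libraries, without overlap (log2 fold change -0.19, edgeR adjusted p = 0.830). The median of the 14 tested genes in this list was 0.01, beside 0.00 for all genes tested.

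Srebf1 was the lower one. It encodes SREBP1, the lipogenic transcription factor whose gene is an LXR target. Its levels were 200.2, 202, 188 and 235 CPM in control replicates 1 to 4. The knockout libraries had 168, 133, 152 and 181 CPM, all under the lowest control library. The log2 fold change was -0.38 (95% interval -0.64 to -0.12, unadjusted p = 0.00795, edgeR adjusted p = 0.507). Its sign was opposite to that of Abcg1, a target of the same receptors. Neither gene passed in edgeR with the low-count filter, and activity of the receptors was not tested. Over the 12 tested genes of LXR partners, ligand enzymes and targets the median was -0.04, with 5 above 0. In that list the gene above 0 with the smallest p was Cyp27a1, an enzyme that makes an oxidised sterol ligand, at 0.25 (edgeR adjusted p = 0.912). Cd5l and Ch25h were below the filter, at 3.14 CPM or less in every library.

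Acceptors and uptake genes showed no call. Pltp, the phospholipid transfer protein gene, had a log2 fold change of 0.31 (edgeR adjusted p = 0.828), and Apoc1, whose gene neighbours Apoe, of -0.33 (edgeR adjusted p = 0.816). The list of export genes and acceptors had a median of 0.17 over 7 tested genes, and 4 of its 11 were below the filter. Among genes of sterol uptake and esterification, Msr1, a scavenger receptor gene of macrophages, was at 0.46 (edgeR adjusted p = 0.910), and Soat2, the second esterifying enzyme, at -0.26 (edgeR adjusted p = 0.952). Both had few reads, 9 to 27 estimated counts per library for Msr1 and 7.32 to 21.2 for Soat2, which gave 95% intervals of -0.24 to 1.15 and -1.09 to 0.58. The median of that list was -0.01 over 7 tested genes.

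**Figure D4:**
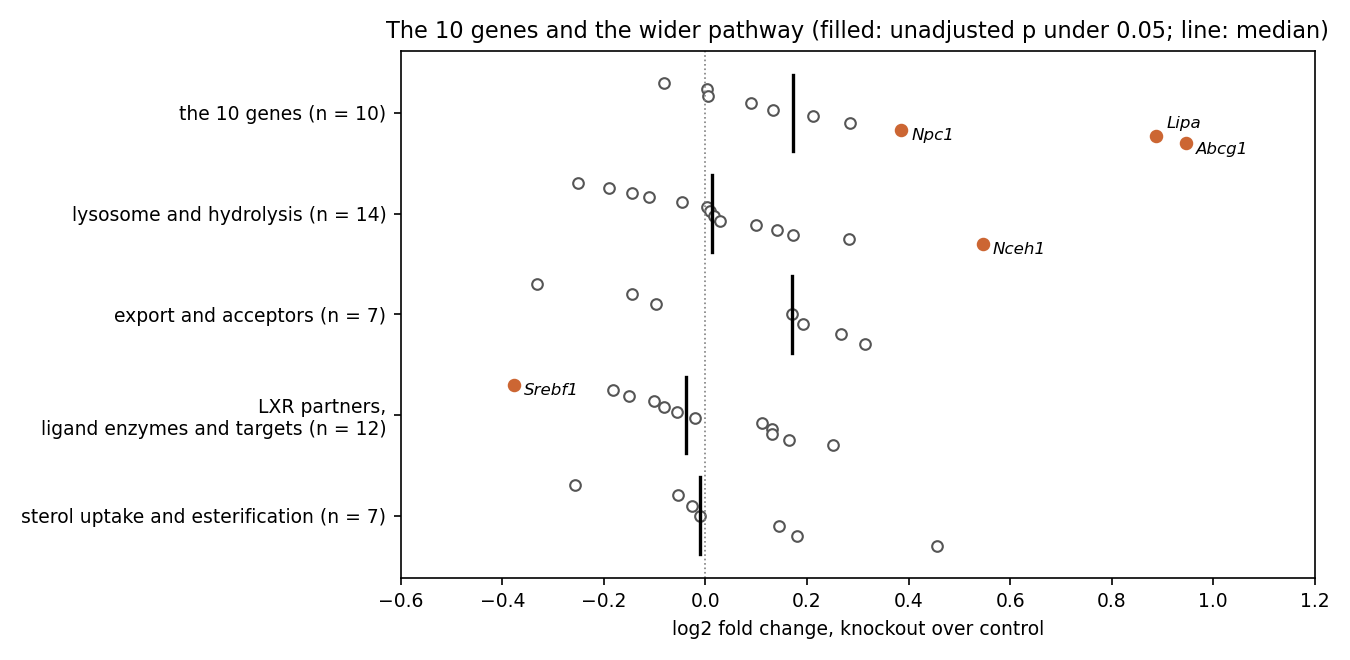
Points give the log2 fold change of knockout over control (horizontal axis) for each tested gene of the 10 and of the 4 wider lists, with the list median as a black line; filled points have an unadjusted p under 0.05. Lipa and Abcg1 lie to the right of all other points, and the medians of the wider lists lie between -0.04 and 0.17.

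Genes with a profile most like that of Lipa were sought among 7444 tested genes with a mean of at least 20 CPM. Likeness was the root mean square difference over the 8 libraries between log2 CPM profiles, each centred on its own mean. The 5 nearest were Mpeg1 (0.155 log2 units), Cd53 (0.194), Lyz2 (0.208), Pirb (0.211) and Apbb1ip (0.221), against a median of 0.509 over all genes compared. The distance of the Lipa profile from a flat line was 0.46. In all 5 the knockout libraries lay above the control libraries without overlap, beside 2.48% of all genes tested. The 5 were picked for likeness to Lipa in these libraries, so this largely follows from the choice and is no separate result. Their log2 fold changes were 0.86, 0.63, 0.85, 0.58 and 0.73 in that order. Of the 5, Lyz2 passed the threshold (edgeR adjusted p = 0.00776), beside 0.168% of all genes tested. Lyz2 is also 1 of the macrophage markers used above. Pirb belongs to a family of near-identical receptor genes, so the division of its reads is uncertain. Of the other 9 genes, the nearest to Lipa was Abcg1 at 0.356, which placed it 243rd, and the farthest was Nr1h3 at 0.542. The points of a profile share library and depth, and the ranking carries no test.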

How the data were processed

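The authors deposited 1 table of estimated counts per gene for 8 libraries, without normalization; the submitters' processing notes name Salmon and GRCm38, and versions, annotation, strand setting and use of molecular identifiers are not given in the sources used here. Per the labels' protocols, 3′-end libraries (BRB-seq, oligo-dT primed, 10 PCR cycles) gave 51-base reads. Of values above 0, 59.6% were whole; counts were rounded. Identifiers were matched without version to GENCODE M21 (34652 of 34866). The genotype comparison used R 4.3.3 and edgeR 4.0.16: robust quasi-likelihood test, TMM factors, filterByExpr, genotype as the only term, Benjamini-Hochberg adjustment over 12480 genes, threshold 0.05. Log2 CPM used a prior count of 2. Marker means and library measures were compared by two-sided exact permutation tests (scipy 1.17.1). Alternatives used DESeq2 1.42.0 and limma 3.58.1. The edgeR fit used for the results, DESeq2 and limma-voom were first tested on simulated counts. The fits with other scaling, filters, a block or a library left out were not. Replicate pairs differed by 4.48 to 9.4 chi-square per degree of freedom, above sampling noise in every pair. A count of 0 allows up to 3 counts, 0.982 to 1.95 CPM, counting error only. Named are the 10 genes, Cyp19a1, the 5 genes nearest to Lipa and, per wider list, those with an unadjusted p under 0.05 and the smallest p in each direction; markers are named where a count is 5 or fewer or to show 1 that differs. Genes, lists and rules were chosen with earlier results of these data known.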

Additional observations from a re-analysis of the deposited data

Results flagged for a closer look

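For each value and genotype, the highest or lowest of the 4 libraries is listed here when it stood apart by Dixon's test at the 95% level. This held in 6 of 82 groups, where chance gives 4.1. Soat1 was at 40.73 CPM in knockout replicate 3, against 26.56 to 28.53 CPM in the other knockout libraries, and it was likewise apart there relative to the macrophage markers, at -0.7025 log2 units against -1.391 to -1.334. For Nr1h2, control replicate 2 had 48.96 CPM and the other 3 had 39.75 to 40.81 CPM. For Apoc1, control replicate 1 had 214.5 CPM and the others 136.0 to 147.6 CPM. Msr1 was at 10.47 CPM in knockout replicate 3, against 7.327 to 7.665 CPM. The Cyp19a1 level of control replicate 3 was 2.243 CPM, with 0.4184 to 0.6988 CPM in the others.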

How the results depend on the processing

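Lipa kept its direction in all 15 alternatives (log2 fold change 0.82 to 0.97) and passed in 13; it missed without control replicate 2 (adjusted p = 0.0551) and with the replicate number as a block (0.0696). Of the 10 genes, 2 passed without the low-count filter and with DESeq2, 0 with the replicate block, and 0 to 1 when 1 library was left out. Over all genes, 21 passed (15 higher, 6 lower); this was 58 (37 higher, 21 lower) without the filter, 55 (28 higher, 27 lower) with DESeq2, 6 (4 higher, 2 lower) with the block, and 4 to 43 (3 to 18 higher, 1 to 25 lower) with 1 library left out, lowest without control replicate 2 and highest without control replicate 4. As a check of pairing, libraries with the same number had deviations from the mean of their genotype that correlated at 0.25, -0.06, -0.01 and -0.24. Only the libraries with number 1 correlated best with their own number. These values show no pairing by number, and correlations this weak cannot exclude it. None of the wider pathway genes passed in any setting run. Signs turned for Nr1h3 (-0.0026 with upper-quartile factors, -0.0537 with limma-voom, -0.11 to 0.11 with 1 library left out), Nr1h2 (-0.0039, -0.0223, and -0.098 to 0.081), Npc2 (-0.0388 without knockout replicate 4, range to 0.19) and Apoe (0.0431 without control replicate 1, range from -0.17). The Cyp19a1 difference, in CPM, ranged from -0.52 to 0.18. Without Lyz2 and Cd68 among the macrophage markers, Lipa relative to them differed by 0.43 and Abcg1 by 0.51 log2 units, Abcg1 no longer overlapped between genotypes and Abca1 did. Leaving out markers that are pathway genes gave no other value, since no marker is among the 10 or the wider lists. The cause of these changes was not tested. At 7.32 to 27 counts, Soat2 and Msr1 are limited by depth.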
